A study of Homo sapiens with 4 samples.

Results

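The genes described here encode subunits of AP-1, a family of transcription factors that bind DNA as pairs. They were the 10 rows of the deposited table named FOS, FOSB, FOSL1, FOSL2, JUN, JUNB, JUND, ATF2, ATF3 and MAFF, out of 28391 genes. RNA came from HCT116, an established cell line of a human colorectal carcinoma, in 2 libraries with a hairpin against ALKBH5 (shALKBH5, labelled ALKBH5 knockdown) and 2 libraries with a control hairpin (shNC, labelled WT). ALKBH5 removes N6-methyladenosine, a methyl mark on adenosine, from RNA. Cells of both groups were kept in the same serum-containing medium. The labels do not tell whether libraries with the same hairpin were grown apart, so each p-value below reflects scatter among 4 libraries that could be technical.

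AP-1 proteins share a basic region that touches DNA and a leucine zipper that joins the partners. FOS proteins bind DNA chiefly as pairs with a JUN protein, and JUN proteins also pair among themselves. ATF2, ATF3 and the small MAF protein MAFF pair with some FOS or JUN proteins or with relatives. FOS, FOSB, JUN and JUNB are known as immediate early genes, which growth factor and stress kinases switch on quickly and whose messages are short-lived. In intestinal epithelium and colorectal tumour cells AP-1 acts downstream of the ERK and JNK kinase cascades.

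On GRCh38, the FOS family genes lie on 4 chromosomes, with FOS (ENSG00000170345) at chr14:75278774-75282230 on the plus strand, FOSB (ENSG00000125740) at chr19:45467995-45475179 on the plus strand, FOSL1 (ENSG00000175592) at chr11:65892049-65900573 on the minus strand and FOSL2 (ENSG00000075426) at chr2:28392448-28417312 on the plus strand. The JUN family comprises JUN (ENSG00000177606) at chr1:58780788-58784327 on the minus strand, JUNB (ENSG00000171223) at chr19:12791496-12793315 on the plus strand and JUND (ENSG00000130522) at chr19:18279760-18281622 on the minus strand. The remaining genes are ATF2 (ENSG00000115966) at chr2:175072250-175168382 on the minus strand, ATF3 (ENSG00000162772) at chr1:212565334-212620777 on the plus strand and MAFF (ENSG00000185022) at chr22:38200767-38216511 on the plus strand.

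The 10 genes were chosen by name with their normalised counts in shALKBH5 and shNC, the values of this same comparison, in view. Their differences between the groups are therefore given as a description, and no test on them is read as support. In bulk RNA, fewer cells that carry a message and less of it per cell cannot be told apart. Values are normalised read counts as the authors deposited them, and differences are on the log2(value + 1) scale with the standard error (SE) of limma-trend, a linear model that shares the estimate of spread across genes.

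JUN, ATF3, MAFF and JUND carry, in the 250 bases before their RefSeq start on GRCh38.p14, an element of the kind that AP-1 and related factors bind. They are shown because they are the genes with such an element wholly before the RefSeq start, while the TGACTCA of FOSL2 lies past it. The windows of JUN and MAFF lie inside the gene spans given above, which begin further upstream. Their elements are thus before the RefSeq start but within those spans. Capitals mark the element, TGACATCA in JUN and in the first of 2 start windows of ATF3, and TGACGTCA in JUND and in the first of 2 start windows of MAFF.
JUN, chr1:58784048-58784297, minus strand: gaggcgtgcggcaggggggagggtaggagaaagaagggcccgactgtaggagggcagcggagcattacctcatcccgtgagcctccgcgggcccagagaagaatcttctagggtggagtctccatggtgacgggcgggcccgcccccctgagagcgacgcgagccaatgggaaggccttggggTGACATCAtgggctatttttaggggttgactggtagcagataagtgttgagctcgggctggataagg
ATF3, chr1:212565157-212565406, plus strand: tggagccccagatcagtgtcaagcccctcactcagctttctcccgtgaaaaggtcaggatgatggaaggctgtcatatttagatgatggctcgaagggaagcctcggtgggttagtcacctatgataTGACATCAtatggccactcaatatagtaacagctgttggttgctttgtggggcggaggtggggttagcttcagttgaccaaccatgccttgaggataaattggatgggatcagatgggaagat
MAFF, chr22:38201744-38201993, plus strand: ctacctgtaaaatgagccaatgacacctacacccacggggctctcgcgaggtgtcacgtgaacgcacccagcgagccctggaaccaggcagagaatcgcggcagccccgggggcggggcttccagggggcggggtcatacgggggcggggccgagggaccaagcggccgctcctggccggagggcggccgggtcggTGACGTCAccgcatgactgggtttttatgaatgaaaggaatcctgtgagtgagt
JUND, chr19:18281623-18281872, minus strand: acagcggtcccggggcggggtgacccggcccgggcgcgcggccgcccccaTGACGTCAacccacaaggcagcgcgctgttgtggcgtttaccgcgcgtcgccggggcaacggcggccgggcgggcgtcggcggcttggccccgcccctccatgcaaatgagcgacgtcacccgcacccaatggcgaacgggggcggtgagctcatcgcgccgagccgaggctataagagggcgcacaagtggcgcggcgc

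Windows of 300 bases, 250 before and 50 after the start, were read for 8 of the 10 genes, with 10 windows in all because ATF3 and MAFF have 2 each. FOSL1 and ATF2 are named only. On both strands, TGACATCA, the variant known from the JUN promoter, was in the windows of JUN and ATF3, against 2.61% of the 35116 windows of all genes. TGACGTCA, the cyclic AMP response element, was in those of JUND and MAFF, against 1.85% of all windows. TGACTCA, the classical AP-1 site, was in that of FOSL2 alone, 5 bases into the transcript, against 4.95%. TATAAA was in 4 genes, FOS, FOSB, JUNB and the second window of ATF3, against 11.5%. The CArG box bound by serum response factor was in 0 of these windows, against 1.29%, and bases further upstream were not read. Each is a match of letters and not a measured binding site.

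Exon structure differed among the genes, up to 14 exons for ATF2. JUN, JUNB and JUND each consist of 1 exon in GENCODE release 29, as do 2.62% of 14334 protein-coding genes tested. The 3′ untranslated regions of all 10 hold the pentamer ATTTA, the core of AU-rich elements that speed decay of many immediate early messages, as do 68.5% of the same genes. The longer TATTTAT was found in 8 of the 10, all but ATF2 and JUNB, against 31.0%, shares that also depend on the length of the region. Per kilobase, ATTTA ran from 1.39 in FOSB to 6.20 in FOS, with 7 of the 10 above the median of 1.53 over all these genes. FOSB, FOSL1 at 1.5 and JUND at 1.47 were below it, and FOSL2 had 1.85. A relation of this density to the differences between the groups was not tested. Stretches of 30 bases around the densest ATTTA on GRCh38 are shown for genes whose shALKBH5 levels were furthest below shNC and for JUND, the gene that went the other way, with ATTTA in capitals.
FOS, chr14:75282057-75282086, plus strand: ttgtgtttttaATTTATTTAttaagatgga
FOSL2, chr2:28416348-28416377, plus strand: aattgacATTTAttttattATTTAttttaa
MAFF, chr22:38216400-38216429, plus strand: cggctcctagaATTTATTTAtttcctgact
JUN, chr1:58781336-58781365, minus strand: ttccagaaaggatATTTAagaaaatacaat
JUND, chr19:18279998-18280027, minus strand: tcgattctgccctATTTAtgtttctactcg

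GGACT, one spelling of the sequence at which N6-methyladenosine is placed, was in the transcripts of 9 of the 10 genes, against 92.1% of 14334 genes. FOSL1 was the transcript without it. The median over the 14334 genes was 0.964 per kilobase, and 6 of the 10 were above it, from 1.04 in FOSL2 to 1.48 in ATF3. Besides FOSL1, MAFF at 0.803, ATF2 at 0.718 and JUNB at 0.549 per kilobase were below it. A match of these letters is no measurement of methylation.

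The libraries and labels were checked first. Reads assigned to genes numbered from 16884473 to 17047446 in shALKBH5 and from 16398604 to 17493141 in shNC. ALKBH5 was at 312 and 270.2 normalised counts in the shALKBH5 libraries, against 1905 and 1941 in the shNC libraries, 15.1% of the shNC mean (log2 difference -2.72 ± 0.0812, limma-trend adjusted p 0.00131, which passed neither without shNC library 1 nor without shNC library 2). Of 8 markers of colon epithelial lines, 6 had a mean of at least 10 normalised counts, led by KRT8, KRT19 and KRT18, while VIL1 and CDH17 were near 0, and the 8 summed to 99330 to 101600 in shALKBH5 and 107200 to 109900 in shNC. Leukocyte markers summed to 22.0 to 26.4 in shALKBH5 and 30.4 to 32.7 in shNC, with PTPRC and CD3E not listed. Fibroblast markers summed to 859.7 to 882.6 in shALKBH5 and 915.0 to 929.7 in shNC, nearly all of it COL1A1, with COL1A2 and LUM not listed. Endothelial markers summed to 32.4 to 45.0 in shALKBH5 and 40.0 to 64.4 in shNC, with TEK not listed. The part of these markers in the results below was not tested.

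Of the AP-1 genes, 9 were lower in shALKBH5 than in shNC in every library, and JUND was higher. FOSL2, FOS, JUN and MAFF stood at 51.4% to 56.6% of their shNC means, FOSB, ATF2, ATF3 and JUNB at 64.0% to 76.7%, and FOSL1 at 81.3%. JUND stood at 112%. The groups did not overlap for any of the 10 genes, 9 with shALKBH5 lower and 1 with it higher, which with 2 libraries a group is common: 25.6% of 25887 genes tested had shALKBH5 lower without overlap and 25.0% had it higher. Over the 12540 genes with a mean of 50 or more, these shares were 30.8% and 32.9%. In limma-trend, 8 of the 10 were among the genes called lower at an adjusted p under 0.05, all but FOSB and JUND, and 0 among those called higher (0 at an unadjusted p under 0.05). That fit called 1.88% of all genes tested lower and 1.98% higher, and 3.86% of the genes with a mean of 50 or more were among the lower ones; nothing is read from the count because the same values chose the genes. On recovered reads, edgeR called 9 lower and 1 higher, beside 10.4% of its genes lower and 10.4% higher, and DESeq2 called 7 lower and 0 higher, beside 5.56% lower and 6.38% higher. With shNC library 1 or shNC library 2 left out, limma-trend called 0 of the 10, with 9 at an unadjusted p under 0.05 each time, and the whole table then had 0 calls as well.

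**Figure D1:**
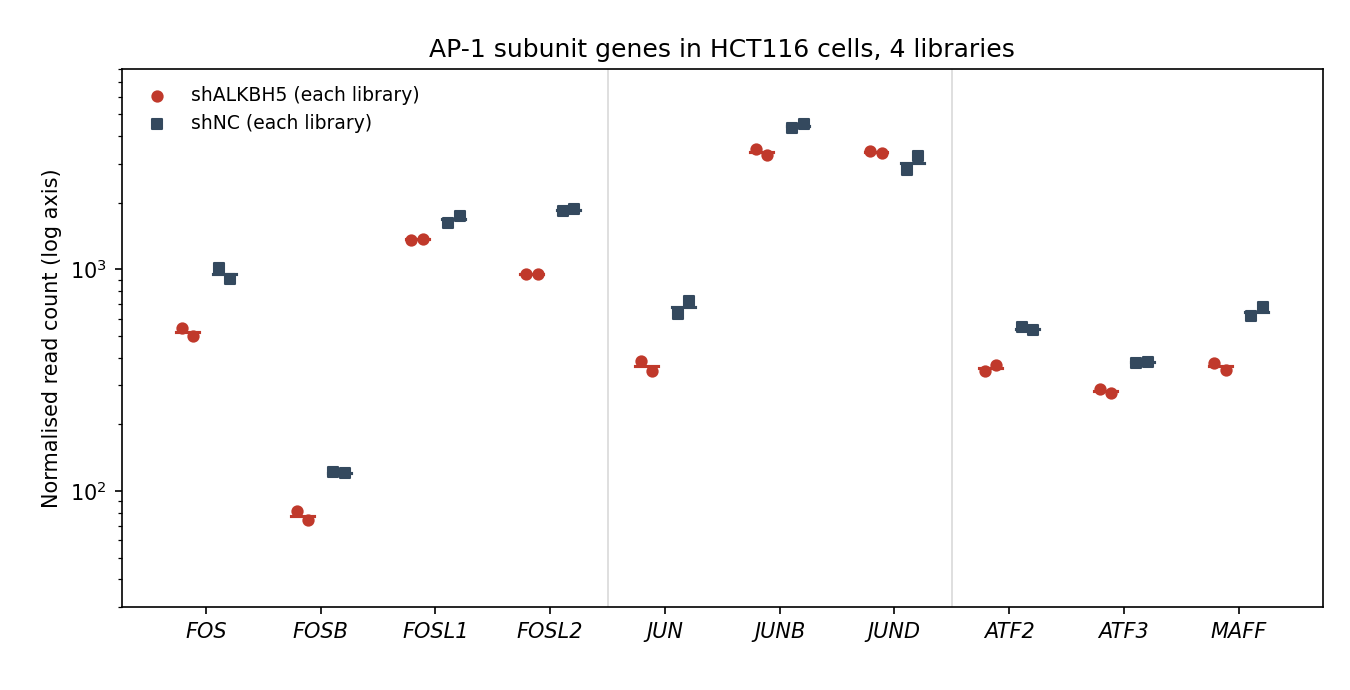
Normalised read count (log axis) of each AP-1 subunit gene in each library, shALKBH5 as circles and shNC as squares, with a line at each group's mean. The circles lie below the squares for 9 genes and above them for JUND, where 3432 and 3349 in shALKBH5 stand against 2795 and 3246 in shNC.

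Among the FOS family, FOSL2 differed most. FOSL2, which encodes FRA-2, was at 948.4 and 952.8 normalised counts in shALKBH5, against 1825 and 1871 in shNC. Its libraries were 0.00661 apart within shALKBH5 and 0.0355 apart within shNC on the log2 scale, and the groups were 0.937 apart at their nearest points. The log2 difference was -0.96 ± 0.0436 (SE, n = 2 per group), the lowest of the 10. FOS, whose product is the founding partner of JUN, was at 543.1 and 498.4 in shALKBH5, against 1013 and 900.1 in shNC, with a log2 difference of -0.87 ± 0.0823. Its spread within each group was larger than that of FOSL2, at 0.124 and 0.170 on the log2 scale, and the gap between the groups was 0.728.

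FOSL1, which encodes FRA-1, a subunit known for high levels in invasive carcinoma lines, was at 1360 and 1368 in shALKBH5, against 1616 and 1741 in shNC. All shALKBH5 values lay below all shNC values, by a gap of 0.240 on the log2 scale, and the difference of -0.30 ± 0.0520 was the smallest of the 9 lower genes. FOSB had the fewest reads, 80 and 74 in shALKBH5 and 128 and 118 in shNC. Its normalised counts were 81.1 and 74.1 in shALKBH5, against 122 and 121 in shNC, a log2 difference of -0.64 ± 0.141. That standard error was the widest of the 10.

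The JUN family was divided. JUN, the classical partner of FOS and a substrate of JNK kinases, was at 388.1 and 348.3 in shALKBH5, against 631.6 and 718.2 in shNC. Both shALKBH5 libraries lay well below both shNC libraries, with a gap of 0.701 on the log2 scale against spreads of 0.156 and 0.185 within the groups, and the log2 difference was -0.87 ± 0.0945. JUNB, a weaker activator that can oppose JUN, was at 3505 and 3276 in shALKBH5, against 4336 and 4504 in shNC. It was lower by a log2 difference of -0.38 ± 0.0466, with a gap of 0.307 between the groups against spreads of 0.0975 and 0.0546 within them.

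JUND, a subunit known for steady expression, was at 3432 and 3349 in shALKBH5, against 2795 and 3246 in shNC. The higher shNC library came within 0.0450 of the lower shALKBH5 library on the log2 scale, while the shNC libraries themselves were 0.215 apart. Its difference of 0.17 ± 0.0740 was smaller than the spread within shNC, and it became 0.06 without shNC library 1 and 0.28 without shNC library 2.

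Of the other subunits, MAFF was furthest below shNC. MAFF, a small MAF protein without a transactivation domain of its own, was at 376.9 and 353.3 in shALKBH5, against 614.4 and 676.4 in shNC, a log2 difference of -0.82 ± 0.0788. ATF2, which pairs with JUN and is phosphorylated by p38 and JNK kinases, was at 347.6 and 372.3 in shALKBH5, against 546.9 and 532.3 in shNC, a log2 difference of -0.58 ± 0.0708. ATF3, a stress-induced subunit that often represses, was at 289.8 and 276.2 in shALKBH5, against 378.6 and 384.2 in shNC, a log2 difference of -0.43 ± 0.0751. For each of these 3 genes the groups were further apart than the libraries within either group.

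**Figure D2:**
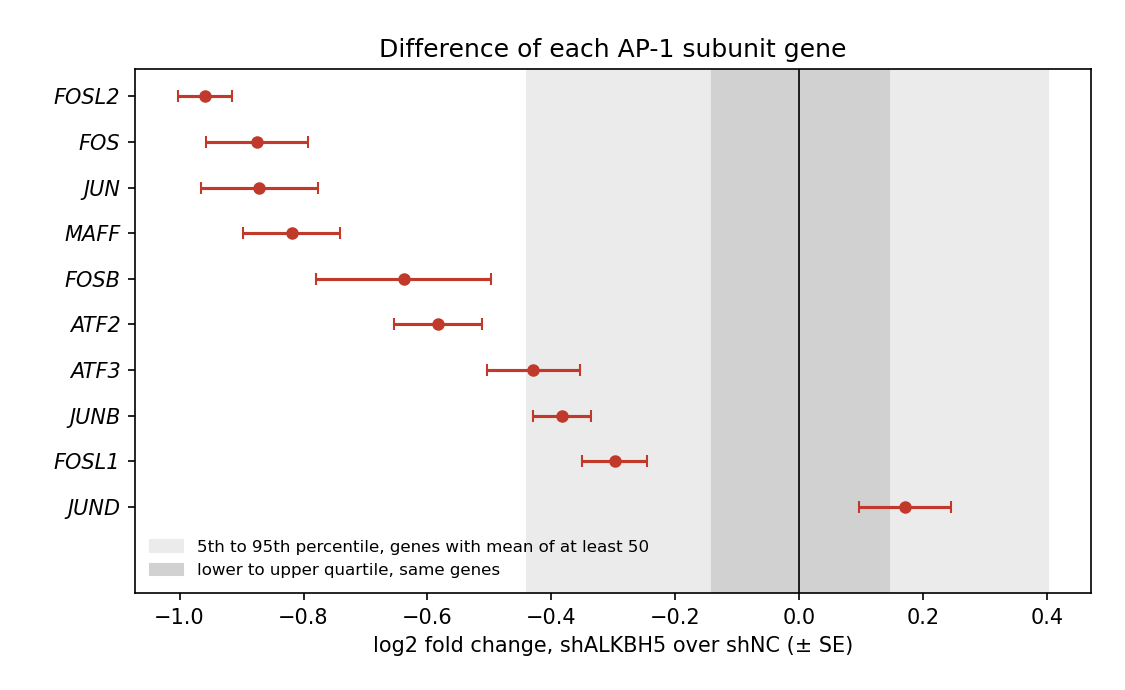
Difference of each AP-1 subunit gene as log2 fold change of shALKBH5 over shNC, with bars of ± 1 SE, over bands from the 5th to the 95th percentile and between the quartiles of 12540 genes averaging 50 or more normalised counts. FOSL2, FOS, JUN, MAFF, FOSB and ATF2 lie below the 5th percentile of those genes at -0.44, and JUND at 0.17 lies inside the band that ends at 0.40.

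The median of the 10 differences was -0.61, against -0.004 for all genes tested. All 10 passed the filter on low values in both groups, with means of 99.4 to 3905 normalised counts over the 4 libraries. Under the 12 other settings tried, none of the 10 differences changed sign.

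Reads of overlapping genes could enter some of these values, because the sources used here do not say whether strand was used in counting. ERCC1 overlaps FOSB on the opposite strand and was at 1291 and 1274 normalised counts in shALKBH5, against 1268 and 1281 in shNC. HOOK2 spans JUNB on the opposite strand, with 1332 and 1173 in shALKBH5 and 1213 and 1324 in shNC, groups that overlap. PLA2G6 overlaps MAFF on the opposite strand and lay in the other direction from it, at 347.6 and 392.3 in shALKBH5 and 313.9 and 315.7 in shNC. FLJ31356, antisense to FOSL2, had 0 and 1.0 in shALKBH5 and 5.71 and 5.11 in shNC, few counts beside those of FOSL2. The short genes AC104695.3 within FOSL2 and MIR933 and RF02271 within ATF2 held at most 4.0 in any library.

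Levels were compared between genes per kilobase of the exon union, the gene length in the deposited table. On this scale JUNB and JUND led in both groups, followed by FOSL1, FOS, FOSL2 and JUN, and FOSB was last. In shALKBH5 JUNB had 1926 and 1800 normalised counts per kilobase and JUND 1842 and 1798, so these neighbours overlapped. In shNC JUNB had 2383 and 2474 and JUND 1500 and 1742, without overlap. MAFF and ATF2 overlapped in shALKBH5, and ATF3 and ATF2 in shNC.

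The summed FOS family level per kilobase was 1035 and 1025 in shALKBH5, against 1446 and 1484 in shNC, 70.3% of the shNC mean. The summed JUN family level was 3878 and 3696 in shALKBH5, against 4061 and 4420 in shNC, 89.3% of the shNC mean. Within the FOS family, FOSL1 made up 69.6% and 70.7% of the level per kilobase in shALKBH5, against 59.2% and 62.2% in shNC. FOS made up 16.2% and 15.0% in shALKBH5, against 21.6% and 18.7% in shNC. FOSL2 made up 12.8% and 13.0% in shALKBH5, against 17.6% in both shNC libraries. Each share lay on 1 side in both libraries of a group. Within the JUN family, JUND made up 47.5% and 48.6% in shALKBH5, against 36.9% and 39.4% in shNC, and JUNB 49.7% and 48.7% in shALKBH5, against 58.7% and 56.0% in shNC. JUN itself held 2.83% and 2.66% in shALKBH5, against 4.39% and 4.59% in shNC.

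The shares depend on which length is used. Per coding length FOSL2 took 30.3% and 30.8% of the FOS family level in shALKBH5 and 38.4% and 38.5% in shNC, more than per exon union. FOS then took 14.9% and 13.8% in shALKBH5 and 18.3% and 15.9% in shNC, so FOSL2 stood above FOS per coding length and below it per exon union. The FOSL2 3′ untranslated region spans 4864 bases. FOSL1 then took 52.3% and 53.1% in shALKBH5, against 40.9% and 43.2% in shNC. The difference in the FOSL1 share, shALKBH5 minus shNC, was 9.45 points per exon union and 10.7 points per coding length.

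**Figure D3:**
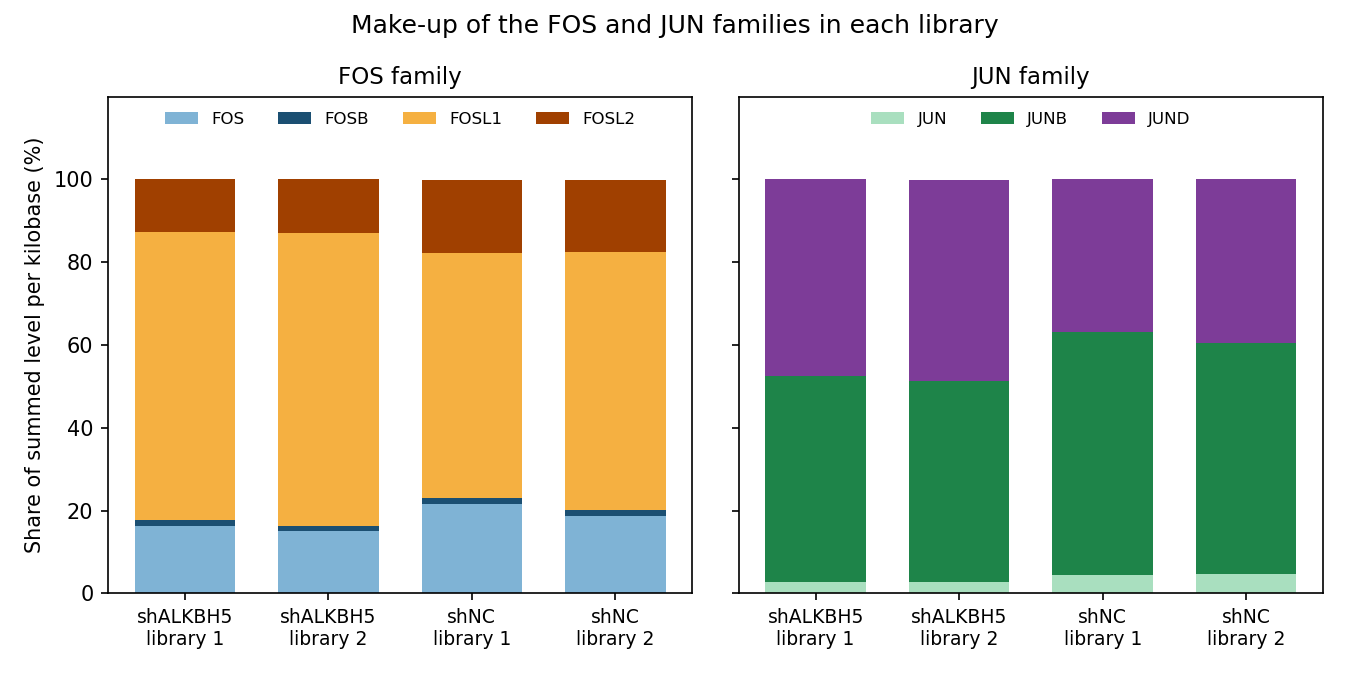
Share in percent of each gene in the summed level per kilobase of exon union of its family, FOS family on the left and JUN family on the right, 1 bar for each library with shALKBH5 before shNC. FOSL1 and JUND take larger shares in both shALKBH5 libraries than in either shNC library. The FOSL1 level itself was lower in shALKBH5, at 81.3% of its shNC mean, while that of JUND was at 112%.

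Other genes of the pathway were taken from 3 lists and were not chosen for membership in AP-1. The lists too were drawn up with earlier results of these data known, so their calls are given as a description. Of 25 genes for MAP kinases, the transcription factors they act on and ligase parts that mark JUN for destruction, limma-trend called 4 lower and 1 higher, with 20 not passing, beside 1.88% lower and 1.98% higher over all genes tested. Of the genes with a mean of 50 or more, as most of this list had, 3.86% were called lower. Their share called higher was not counted. RPS6KA3, the ERK-activated kinase RSK2, fell to 719.4 and 701.6 in shALKBH5, against 1089 and 1092 in shNC, a log2 difference of -0.62 ± 0.0495 (limma-trend adjusted p 0.00791). RPS6KA5, the kinase MSK1 that phosphorylates CREB and histones, fell to 342.5 and 371.3 in shALKBH5, against 604.9 and 520.0 in shNC, by 0.65 ± 0.0974 on the log2 scale (limma-trend adjusted p 0.0348). Both shALKBH5 libraries lay below both shNC libraries for each of these kinases.

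MAPK14, the p38 alpha kinase, fell to 939.3 and 839.7 in shALKBH5, against 1174 and 1231 in shNC (log2 difference -0.44 ± 0.0700, limma-trend adjusted p 0.0403). MAPK8, the JNK1 kinase that phosphorylates JUN, fell to 927.2 and 878.7 in shALKBH5, against 1120 and 1108 in shNC (log2 difference -0.30 ± 0.0519, limma-trend adjusted p 0.0458). The JNK activator MAP2K7 rose to 1559 and 1568 in shALKBH5, against 1184 and 1213 in shNC (log2 difference 0.38 ± 0.0431, limma-trend adjusted p 0.0195). MAP2K2, an ERK activator with one of the highest means of this list, was at 3691 and 3583 in shALKBH5, against 3396 and 3838 in shNC, a log2 difference of 0.010 that did not pass. Its groups overlapped, and its difference was -0.023 with libraries scaled to equal totals, -0.078 without shNC library 1 and -0.011 without shALKBH5 library 1. The median of the 25 was -0.031, against -0.004 for all genes tested.

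Of 11 bZIP genes that pair with AP-1 subunits, 9 were in the table, and limma-trend called 0 of them, beside 1.88% lower and 1.98% higher over all genes tested. At an unadjusted p under 0.05, 2 of the 9 were lower and 0 higher, beside 2758 lower and 2773 higher of 25887 genes. MAFG, a small MAF protein like MAFF, was at 1967 and 1936 in shALKBH5, against 2228 and 2317 in shNC, with a log2 difference of -0.22 ± 0.0414 that did not pass (limma-trend adjusted p 0.0562). It was the 1 call of edgeR and of DESeq2 on recovered reads in this list, with adjusted p-values of 0.00259 and 0.0214. MAFK, the third small MAF, was at 1307 and 1301 in shALKBH5, against 1331 and 1351 in shNC, a log2 difference of -0.040. The difference between MAFF and its relatives was not tested. The median of the 9 was -0.040.

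Of 23 textbook target genes of AP-1, 20 were in the table and 19 tested, and limma-trend called 3 higher and 2 lower, beside 1.98% higher and 1.88% lower over all genes tested. Among the 12540 genes with a mean of 50 or more, 3.86% were called lower. Their share called higher was not counted, and all genes tested had 513 higher calls. CD44, a hyaluronan receptor, rose to 10424 and 10868 in shALKBH5, against 6917 and 6938 in shNC (log2 difference 0.62 ± 0.0333, limma-trend adjusted p 0.00245). EZR, which encodes the membrane linker ezrin, rose to 25731 and 26206 in shALKBH5, against 18216 and 18045 in shNC (log2 difference 0.52 ± 0.0264, limma-trend adjusted p 0.00221). CCND1, the cyclin D1 gene, rose to 11204 and 10875 in shALKBH5, against 9619 and 9052 in shNC (log2 difference 0.24 ± 0.0401, limma-trend adjusted p 0.0429).

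TIMP1, an inhibitor of matrix metalloproteinases, fell to 2247 and 2123 in shALKBH5, against 2957 and 2965 in shNC (log2 difference -0.44 ± 0.0431, limma-trend adjusted p 0.0140). VEGFA, an angiogenic growth factor, fell to 1445 and 1404 in shALKBH5, against 1905 and 1855 in shNC (log2 difference -0.40 ± 0.0431, limma-trend adjusted p 0.0177). The median of the 19 was 0.040, and -0.020 with libraries scaled to equal totals. As for the whole table, none of the 5 target genes or 5 kinase genes named as called passed in limma-trend without shNC library 1 or without shNC library 2.

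**Figure D4:**
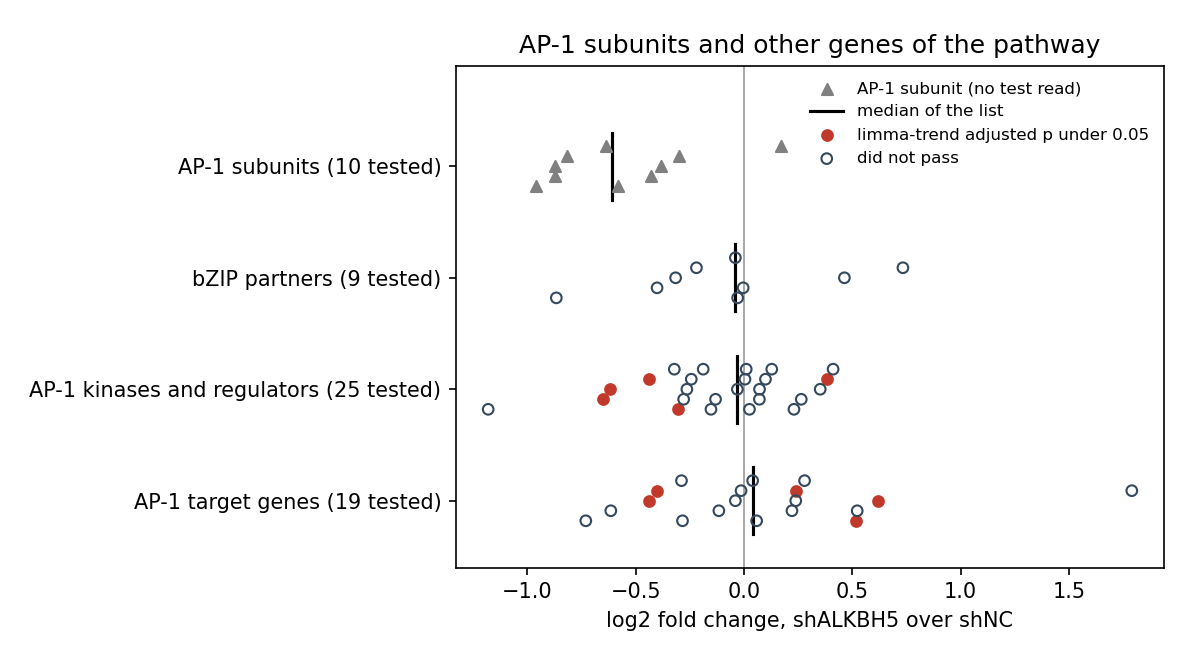
Log2 fold change of shALKBH5 over shNC for the AP-1 subunits and for 3 lists of other pathway genes, subunits as grey triangles and other genes as circles, filled where limma-trend gave an adjusted p under 0.05, with a bar at each list's median. The medians are -0.61 for the subunits, -0.040 for bZIP partners, -0.031 for kinases and regulators and 0.040 for target genes, the last -0.020 with equal totals.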

How the data were processed

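RNA of 4 libraries was prepared with a kit for mRNA, per the labels' protocols. No aligner, counter, strand setting or build is named there. The authors deposited a signal for each gene and library, namely read counts scaled by the size factor of that library; dividing by the step of each library returned whole reads for 100% of values (tolerance 0.001 reads). Their deposited table adds log2 fold changes and p-values, per the file headers. DESeq2 on the recovered reads came within 4.03e-05 of the authors' deposited log2 fold changes, and the authors' deposited table has 7 of the 10 genes lower and 0 higher at an adjusted p under 0.05. Gene positions and exon lengths match GENCODE release 29 on GRCh38.

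Differences were fitted with limma-trend (limma 3.58.1, R 4.3.3) on log2(value + 1) for the 25887 genes that reached 1 in 2 or more libraries, adjusted by Benjamini-Hochberg with a threshold of 0.05. Alternatives were edgeR 4.0.16 and DESeq2 1.42.0 on recovered reads, another pseudocount, other filters and scalings, a replicate block, and each library left out. Scripts were tested on simulated data. The design foresaw edgeR for raw counts, and limma-trend was used because the values are normalised. The members and gene lists were chosen with earlier results of these data known. Genes named are the 10 subunits, ALKBH5, genes overlapping a subunit and, of each other list, those called (at most 6) and the 2 with the highest means. One gene that this rule names is not reported here. Replicate libraries were distinct, their chi-square per gene being 2.21 in shALKBH5 and 2.85 in shNC. Promoter sequences are from RefSeq (GRCh38.p14). Untranslated regions are from the GENCODE transcripts, in genes with a 3′ region of at least 100 bases. Reads per library set the precision of low genes such as FOSB.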

Additional observations from a re-analysis of the deposited data

How the results depend on the processing

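The differences of the 10 AP-1 genes kept their sign under all 12 other settings. FOSL2 ranged from -0.99 to -0.94 and JUND from 0.06 to 0.28 on the log2 scale. Counts of calls moved more. Over all genes, limma-trend called 513 higher and 487 lower. Among genes averaging 50 or more it called 1789 higher and 1698 lower, with equal totals 787 higher and 1272 lower, edgeR called 1712 and 1716, and DESeq2 793 higher. With single libraries left out the calls ran from 0 to 1129 higher and from 0 to 1152 lower. The 0 calls came without shNC library 1 or 2, where limma-trend had 3859 or 4201 genes at an unadjusted p under 0.05. ALKBH5 ranged from -2.83 to -2.62 with single libraries left out and did not pass without either shNC library. The lone library of a group is assumed to vary like the other group.

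Among the AP-1 genes, 8 were called lower, and from 0 to 9 with single libraries left out. With no filter beyond a value above 0, 6 were called lower. FOSL1 and ATF3 then had limma-trend adjusted p-values of 0.0561 and 0.055, beside 0.0476 for each in the main fit. JUND was the 1 called higher by edgeR and among genes averaging 50 or more. Of the kinase list, edgeR called 8 lower and 2 higher, as did the test among genes averaging 50 or more, while equal totals gave 7 lower. No filter beyond a value above 0 gave 3 lower, and MAPK8 did not pass there (limma-trend adjusted p 0.0546). Of the target list, both gave 5 higher and 4 lower, and equal totals 4 lower. Of the bZIP partners, 2 were lower among genes averaging 50 or more, and 1 with equal totals, edgeR or DESeq2. With single libraries left out the bZIP calls ran from 0 to 1 in either direction, the kinase calls from 0 to 6 lower and 0 to 2 higher, and the target calls from 0 to 3 lower and 0 to 5 higher. MAP2K2, which did not pass, had 0.010, and -0.023 with equal totals, -0.078 without shNC library 1, -0.011 without shALKBH5 library 1 and up to 0.099 without shNC library 2. The causes were not tested.

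Libraries of both groups carry the numbers 1 and 2, but nothing in the labels pairs them, and the deviations of same-numbered libraries had a correlation of -0.03 over 12540 genes. With the replicate number as a block, which leaves 1 residual degree of freedom, 56 genes were higher and 55 lower. Of the AP-1 genes 2 were then lower, and of the kinase genes 0 either way. Of the target genes 2 were higher, CD44 and EZR, and 0 lower. The difference in the FOSL1 share ran from 7.97 to 10.9 points and that in the JUND share from 8.65 to 11.1 points under the other lengths and with single libraries left out.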
